A study of Mus musculus with 2 samples.

Results

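Glucose and fructose reach glycolysis in the liver through a small set of proteins, and 8 of their genes are described here in livers of n-3-depleted mice. The genes were chosen by name, and are the carrier gene Slc2a2, the regulator gene Gckr, the enzyme genes Khk, Pfkl, Pfkfb1, Pklr and Ldha, and the transcription factor gene Mlxipl. Probe sets named for 1 of these genes alone were found for 7 of the 8, with 11 probe sets in all, out of 18193 genes that had such a probe set. Pfkfb1 is not analysed here. Male C57Bl/6J mice, 9 weeks old when housed, ate an n-3 PUFA-depleted sunflower oil diet (DEF) with an n-6 to n-3 fatty acid ratio of 127.2, in an experiment of 112 days. For the final 10 days one group (DEF/FOS) kept eating it and received 0.25 g a day of fructooligosaccharides, a fibre fermented by gut bacteria, in the water; its RNA is called the FOS pool below. The other group (DEF/CT) ate the soybean oil control diet, of ratio 6.9, for those 10 days; its RNA is called the switched pool. Each group is given as 8 mice, and the RNA of a group was pooled in equal amounts and put on 1 Affymetrix array, where the extract protocol gives 4 to 8 mice per pool.

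Both groups had been depleted of n-3 fatty acids, and they differed in fibre and in dietary oil at the end, so the parts of these in a difference cannot be told apart. With 1 array per group no spread between mice or arrays could be measured, no difference has a p-value, and the differences describe these pools. Differences are log2 signals of the FOS pool minus the switched pool, centred on the median of the probe sets above a signal floor of 19.4, and a gene's value is that of its brightest probe set. In bulk tissue, fewer cells of a type and less RNA per cell cannot be told apart. Albumin (Alb) had signals of 11023 and 11303 in the FOS and switched pools, and all 14 measured hepatocyte markers were above the floor with a median difference of -0.04. Markers of skeletal muscle were present in the switched pool. Their summed signal over 24 genes was 329 in the FOS pool and 3647 in the switched pool, and 15 of the 24 were below the floor in the FOS pool against 1 in the switched pool.

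As background, GLUT2, the product of Slc2a2, carries glucose and fructose across the hepatocyte membrane. The Gckr protein is a nuclear regulator of glucose phosphorylation, and fructose is phosphorylated by ketohexokinase (Khk), whose product enters below the phosphofructokinase step and so escapes its control. The liver pyruvate kinase encoded by Pklr makes pyruvate at the end of the pathway. The product of Mlxipl, the factor ChREBP, is activated by sugar phosphates and binds carbohydrate response elements, of which the one in the Pklr promoter is the textbook case. Hepatic Pklr is also known to be lowered by dietary polyunsaturated fatty acids and by glucagon.

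Promoter windows from RefSeq (build GRCm38.p6, 250 bases before to 50 after an annotated start) were found for all 8 genes, with 14 windows in all because several genes have more than 1 start. They are shown for the gene with the largest difference, Pklr, for the other members more than 1.3-fold apart, Khk and Ldha, and for the factor's own gene. Capitals mark the E-box CACGTG, the E-box-like half-site CACGGG on either strand, and the carbohydrate response element. The Pklr window is that of the downstream start, chr3:89136373-89136672, plus strand; the others are Khk at chr5:30921309-30921608, Mlxipl at its upstream start, chr5:135089640-135089939, and Ldha at its upstream start, chr7:46845554-46845853, all on the plus strand.
Pklr: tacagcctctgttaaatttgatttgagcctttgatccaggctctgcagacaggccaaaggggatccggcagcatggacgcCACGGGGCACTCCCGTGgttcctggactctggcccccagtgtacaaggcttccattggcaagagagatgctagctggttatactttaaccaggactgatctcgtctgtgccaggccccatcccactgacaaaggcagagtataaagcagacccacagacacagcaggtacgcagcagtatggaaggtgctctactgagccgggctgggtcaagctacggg
Khk: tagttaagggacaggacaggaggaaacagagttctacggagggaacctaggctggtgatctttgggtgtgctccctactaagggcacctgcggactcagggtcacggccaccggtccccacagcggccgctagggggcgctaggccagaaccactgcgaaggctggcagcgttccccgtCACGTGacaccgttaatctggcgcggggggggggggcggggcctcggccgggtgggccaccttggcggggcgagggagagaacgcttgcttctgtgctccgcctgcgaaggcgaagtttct
Mlxipl: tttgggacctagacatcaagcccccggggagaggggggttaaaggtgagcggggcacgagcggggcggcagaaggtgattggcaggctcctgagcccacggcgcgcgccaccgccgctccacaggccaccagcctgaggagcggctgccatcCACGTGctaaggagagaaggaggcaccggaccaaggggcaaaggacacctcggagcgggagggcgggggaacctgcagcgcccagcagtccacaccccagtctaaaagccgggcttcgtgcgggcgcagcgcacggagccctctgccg
Ldha: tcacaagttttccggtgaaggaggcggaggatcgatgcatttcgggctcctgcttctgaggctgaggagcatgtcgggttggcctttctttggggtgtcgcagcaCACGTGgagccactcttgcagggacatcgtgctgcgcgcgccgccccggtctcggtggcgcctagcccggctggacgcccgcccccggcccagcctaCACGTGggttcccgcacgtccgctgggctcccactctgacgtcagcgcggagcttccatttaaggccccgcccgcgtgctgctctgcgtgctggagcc

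The capitals in the Pklr window span one match to the carbohydrate response element, CACGGGGCACTCCCGTG, from base -170 to base -154 relative to the start. It holds both half-sites, with 5 bases between them, so the 3 matches are one stretch. The element was searched as its consensus on both strands, and 39 of 32851 RefSeq windows, 0.119%, hold a match. Among the 14 windows of these genes, 1 does. The other Pklr window, at the upstream start from which the red blood cell form of the enzyme is read, held no match to any motif searched. A TATA box, TATAAA, lay from -31 to -26 in the downstream window.

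The full E-box CACGTG was found in the windows of 3 members, Khk (-71 to -66), Mlxipl (-98 to -93) and Ldha (-145 to -140 and -48 to -43), against 7.15% of all windows. The half-site CACGGG, found in 10.1% of all windows, occurred outside Pklr in the Pfkl window alone, downstream of the start from 44 to 49. GTTAAT, a half-site of the hepatocyte factor HNF1 that 7.10% of windows hold, lay at similar distances in Khk (-60 to -55) and Gckr (-59 to -54), and also in 1 of the Pfkfb1 windows. The HNF4 core CAAAGTCCA, present in 0.475% of windows, was found in none of the 14, and the Slc2a2 window held no match to any of these motifs. The HNF1 and HNF4 motifs were each searched as a fixed string. Sites of these factors with other letters, in the Pklr window or elsewhere, would be missed. TATAAA occurs in 13.6% of all windows. These are matches of letters and not measured binding. Of the genes with the full E-box, Khk and Mlxipl had lower signals and Ldha a higher one in the FOS pool. The part of these motifs in the differences was not tested.

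**Figure D1:**
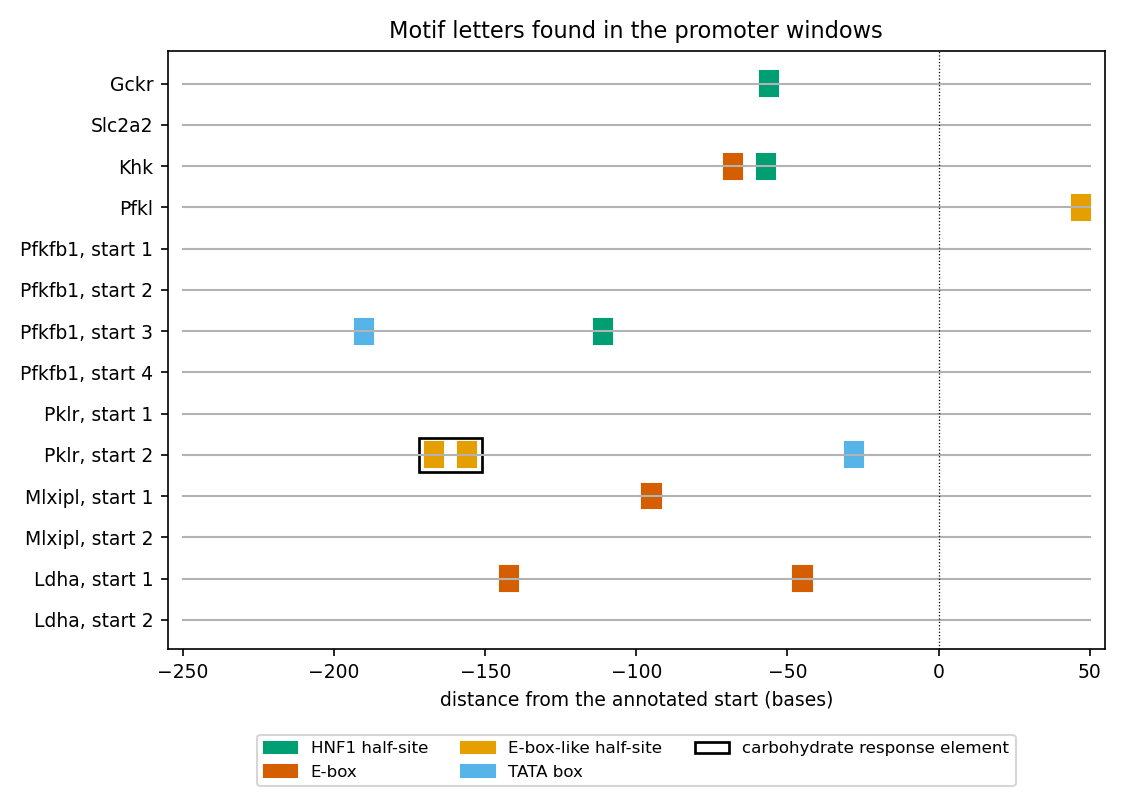
Positions of motif matches in the 14 promoter windows of the 8 genes, in bases from the annotated start (horizontal axis), with 1 line per window and a coloured block for each match. The boxed pair of half-sites in the second Pklr window, from -170 to -154, is the single match to the carbohydrate response element.

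Among the measured genes, Pklr and then Khk had the largest differences, both with lower signals in the FOS pool, and Ldha had the largest on the higher side. Of the 7, Pklr was the 1 gene with a signal lower by 1.5-fold or more in the FOS pool, and 0 were higher by that size. Over all 11163 genes with signals above the floor, 7.82% were lower and 6.75% higher by 1.5-fold or more, so 1 and 0 of 7 is near that background. All 7 were bright, with a mean signal of at least 233 in their brightest probe sets, and over the 6751 genes in the upper part of the signal range (above the 75th percentile) the shares were 3.14% and 3.61%. The median of the 7 was -0.17, with 4 members below 0 and 3 above by the brightest probe set. The 3 include Pfkl, whose probe sets disagreed. With its probe sets ending in _a_at left out, its dim probe set near the floor remained, and 5 members were below 0. The differences of all genes are centred near 0. At the smaller size of 1.3-fold, added after the values had been seen, Khk joined Pklr on the lower side and Ldha stood on the higher side, against 15.5% and 14.1% of all genes.

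**Figure D2:**
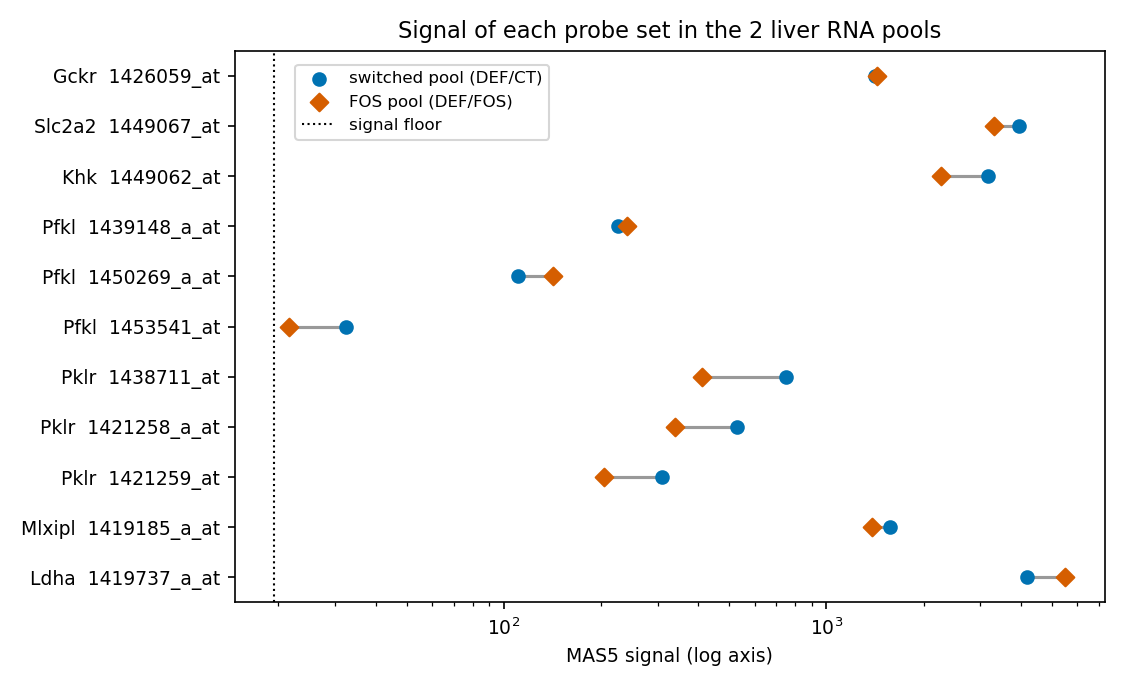
MAS5 signal (log axis) of the 11 probe sets of the 7 measured genes in the switched pool (circles) and the FOS pool (diamonds), 1 array each, with the signal floor as a dotted line. All 3 Pklr probe sets and Khk had lower signals in the FOS pool, Ldha had a higher one, and the dim Pfkl probe set lay close to the floor.

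The liver pyruvate kinase gene Pklr had signals of 412 in the FOS pool and 747 in the switched pool by its brightest probe set, a difference of -0.84 or 1.80-fold lower. Another probe set gave 340 and 527, and the dimmest 204 and 310. The FOS pool's signal was the lower one in all 3, at -0.84, -0.62 and -0.59, with an SD between probe sets of 0.14. For comparison, probe sets of one gene had a pooled SD of 0.23 over the 1222 brightest genes with several probe sets. That SD leaves out the spread between mice and between arrays. Of 2029 genes with at least 3 probe sets above the floor, 9 genes, or 0.444%, had every probe set lower by 1.5-fold or more. Pklr was among them with its dimmest probe set just past that size. Centring on the hepatocyte markers, or using no floor, raised every difference by a constant. The dimmest Pklr probe set then fell short of 1.5-fold. With an offset of 32 added to the signals, all but the brightest Pklr probe set fell short. The share was not recomputed in these settings. Among the 2248 genes whose mean signal was within 2-fold of that of Pklr, 0.801% lay as low or lower. This comparison was chosen with the value known.

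Pklr is also transcribed in red blood cell precursors, and 1 red cell marker moved with it. Alas2, the first enzyme of heme synthesis in red cell precursors, had signals of 308 and 586 in the FOS and switched pools, 1.88-fold lower. Of the 7 listed red cell genes, 3 had a probe set named for them alone, and the other two measured ones, Hba-a1 and Slc4a1, lay below the floor in both pools. The summed signal of the 3 was 330 and 616, most of which is that of Alas2. The part of red cell precursors in the Pklr difference was not tested.

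Ldha, the lactate dehydrogenase subunit that converts pyruvate to lactate, went the other way. Its probe set gave 5497 in the FOS pool and 4183 in the switched pool, 1.33-fold higher, a difference of 0.41. Among 370 genes of like signal, 5.41% lay as high or higher. Ldha is strongly expressed in skeletal muscle too, and the muscle markers lay on the opposite side. Acta1, skeletal muscle actin, had signals of 16.9 and 677, at least 34.5-fold lower in the FOS pool against the floor. The part of muscle RNA in the Ldha difference was not tested. The difference between the Pklr and Ldha values was -1.25 on the log2 scale.

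On the fructose side, Khk had signals of 2271 in the FOS pool and 3177 in the switched pool, 1.38-fold lower, a difference of -0.47. It has 1 probe set, so no agreement within the gene could be checked. Among the 640 genes of like signal, 4.69% lay as low or lower. The triokinase gene Tkfc, of a later step of fructose breakdown, had higher rather than lower signal, at 365 and 336, a difference of 0.14. Glyctk, the glycerate kinase of a side branch, had -0.06 by its brighter probe set and 0.18 by the other. The aldose-type reductase gene Akr1a1 had 0.13 and the aldehyde dehydrogenase gene Aldh2 0.00, the latter with probe sets from -0.33 to 0.34. Of the 4 fructose and polyol enzymes measured, 0 were 1.5-fold apart in either direction. Over all genes above the floor, 7.82% were lower and 6.75% higher by that size, so 0 of 4 is near that background.

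The genes of sugar entry and its control differed less. Slc2a2 had signals of 3295 in the FOS pool and 3951 in the switched pool, 1.19-fold lower, and 17.8% of 482 genes of like signal lay as low or lower. Gckr had 1439 and 1413, a difference of 0.04, which is the smallest of the 7. The other sugar carriers were dim: 5 of 10 lay above the floor, and none of the 5 was 1.5-fold apart by its brightest probe set. This is near the background of all genes above the floor, 7.82% lower and 6.75% higher. Slc2a1, the carrier of most tissues, had 114 and 89.5 but probe sets from -0.50 to 0.37. The fructose carrier Slc2a5 had 22.4 and 17.7, near the floor, and was at least 1.16-fold higher. Slc2a9, a urate carrier, had 39.3 and 50.1, and by its second probe set 16.4, which is below the floor, and 39.8. The insulin-responsive carrier Slc2a4 had 60.0 and 67.9.

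Pfkl, the liver subunit of phosphofructokinase, gave no single direction. Its brightest probe set had 241 in the FOS pool and 226 in the switched pool, a difference of 0.11. The second had 142 and 110, a difference of 0.37. The dimmest had 21.5 and 32.4, a difference of -0.58, with both signals close to the floor of 19.4. The SD of the 3 was 0.49, against 0.14 for the 3 of Pklr. Genes with several probe sets were split into 4 equal groups by their mean signal over probe sets. The pooled SD was 0.41 in the group that holds Pfkl, at mean signals of 55.5 to 98.2. In the dimmest group, at 20.0 to 55.5, it was 0.53. No direction was assigned to Pfkl.

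Mlxipl, the gene of ChREBP, had signals of 1385 in the FOS pool and 1575 in the switched pool, a difference of -0.17. Among 1054 genes of like signal, 20.7% lay as low or lower. The shorter form of the factor is read from an upstream start, and which forms the single probe set measures is not known here. Its dimerisation partner Mlx had signals of 188 and 187, a difference of 0.03. The related factor gene Mlxip had 0.32 at the low signals of 68.7 and 55.6, and the E-box-binding factor genes Usf1 and Usf2 had -0.06 and -0.01, each with a second probe set above 0, at 0.79 and 0.46.

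**Figure D3:**
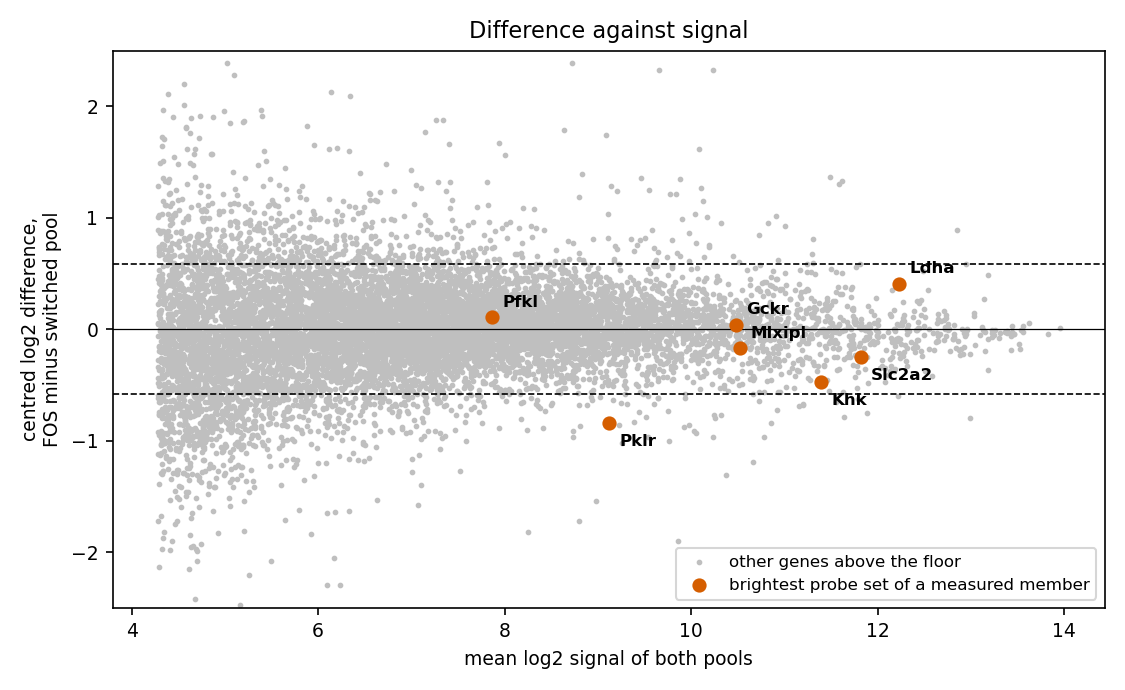
Centred log2 difference (FOS minus switched pool) against the mean log2 signal for the 11163 genes above the floor (grey) and the 7 measured genes (orange), with dashed lines at 1.5-fold; 24 genes lie beyond 2.5 on the vertical axis. Pklr, at -0.84, is the 1 measured member outside the dashed lines, and Khk and Ldha lie near the edges of the cloud at their signals.

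Of the other glycolytic enzymes in their main liver or broadly expressed forms, 6 were measured, with 0 at 1.5-fold in either direction by the brightest probe set and a median of 0.10. The background over all genes above the floor was 7.82% lower and 6.75% higher, so 0 of 6 is near it. Pgam1, which moves the phosphate group late in the pathway, had signals of 893 and 708 in the FOS and switched pools, 1.27-fold higher. Triosephosphate isomerase (Tpi1) had 2434 and 2168, and its 3 probe sets lay between 0.18 and 0.23. Adpgk, an ADP-dependent sugar kinase, had 39.2 and 50.1, and the phosphatase gene Minpp1 had 181 and 159 with a second probe set at -0.04. Bpgm, the bisphosphoglycerate mutase gene, named after its values were seen, had 99.5 and 98.8 by its brightest probe set, a difference of 0.03. Its other probe sets gave 0.20 and 1.05, the latter from signals of 89.5 and 43.6. Over these 6 and the 7 together, 6 genes were below 0 and 7 above.

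A list of further isoforms, most of them known mainly from muscle, brain or blood cells, was given apart. Of 14 above the floor, 4 were lower and 0 higher by 1.5-fold or more, beside a background of 7.82% and 6.75%, and the median was -0.14. That background spans all signals above the floor, and above the 75th percentile of signal the shares were 3.14% and 3.61%. Dimmer genes thus passed this size more often, and Hk2, Eno3 and Hkdc1 lay below that percentile. The muscle hexokinase gene Hk2 had signals of 36.1 in the FOS pool and 66.1 in the switched pool, 1.81-fold lower. The muscle enolase gene Eno3 had 62.4 and 97.4, 1.55-fold lower, Ldhb, the heart-type lactate dehydrogenase subunit, 78.9 and 122, 1.53-fold lower, and Hkdc1, a hexokinase relative, 25.5 and 40.5, 1.57-fold lower. The 4 probe sets of Ldhb ran from -1.54 to -0.61, and the brightest gave the smallest difference. The muscle phosphofructokinase gene Pfkm had 118 and 172, a difference of -0.52, while the pyruvate kinase gene of most non-hepatic tissues, Pkm, had 72.5 and 59.2, a difference of 0.31. Among 18 skeletal muscle markers that passed the floor, 16 were lower by 1.5-fold or more, and Pygm, the muscle glycogen phosphorylase, had 23.4 and 55.9. The part of muscle RNA in the isoform differences was not tested.

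Pathways that branch from glycolysis held genes with higher and genes with lower signals. In the pentose phosphate pathway 0 of 7 measured genes were 1.5-fold apart by the brightest probe set, with 4 above 0 and 3 below. That count is near the background of 7.82% lower and 6.75% higher over all genes above the floor. Pgd, the second NADPH-producing step, had signals of 760 in the FOS pool and 556 in the switched pool, a difference of 0.47, with probe sets from 0.04 to 0.81. The transketolase gene Tkt had 3796 and 2991 (0.36), the transaldolase gene Taldo1 968 and 812 (0.27), and Rpia, a ribose phosphate isomerase, 116 and 134 (-0.19). In pyruvate and lactate handling, 2 of 18 were higher and 2 lower by 1.5-fold or more, beside 6.75% and 7.82% of all genes, with a median of 0.03. The higher ones were the monocarboxylate carrier gene Slc16a1, with signals of 1014 and 632, and Pdk4, an inhibitory kinase of pyruvate dehydrogenase, with 246 and 164. The lower ones were Ldhb and the lactate exporter gene Slc16a3, whose FOS pool signal of 15.6 was below the floor, against 29.5, which makes it at least 1.5-fold lower.

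Other known ChREBP target genes went both ways. Of 19 above the floor, 0 were lower and 1 higher by 1.5-fold or more, beside 7.82% and 6.75% of all genes, and the median was -0.01, with 10 below 0 and 9 above. The fasting and sugar-induced hormone gene Fgf21 was the higher one, with signals of 267 and 141 in the FOS and switched pools, 1.91-fold higher. The malic enzyme gene Me1 had 4225 and 2893, a difference of 0.56, and the glycerol phosphate dehydrogenase gene Gpd1 had 1117 and 815, but its probe sets ran from -1.18 to 0.47. Thrsp, a lipogenic regulator, had the most negative difference by the brightest probe set, at -0.33, and a dim probe set at 14.0 and 31.2. Txnip, a sugar-induced arrestin-like protein, had -0.05 and 0.43 in its 2 probe sets, and G6pc, the catalytic subunit of glucose 6-phosphatase, had -0.13.

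**Figure D4:**
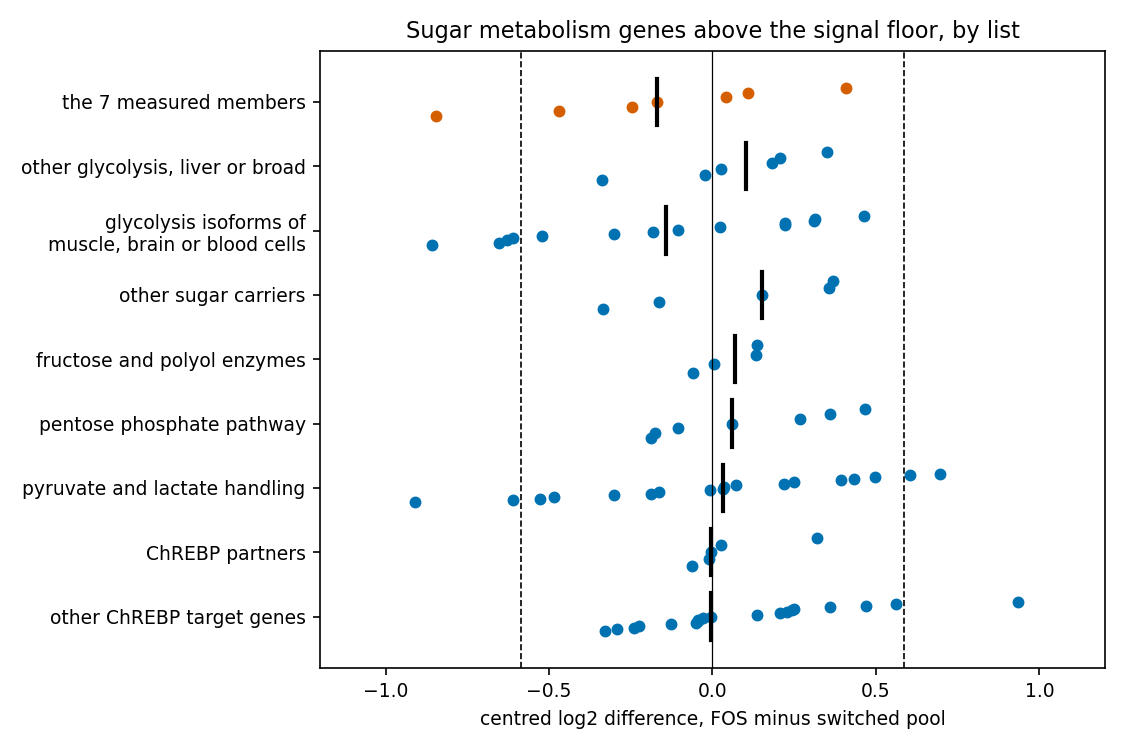
Centred log2 difference (FOS minus switched pool) of every gene above the floor in 9 lists of sugar metabolism genes, 1 point per gene, with the list median as a black bar and dashed lines at 1.5-fold. The members (orange) run from -0.84 for Pklr to 0.41 for Ldha, while the other ChREBP target genes have a median of -0.01.

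Genes of factors known to act at glycolytic promoters were, by the brightest probe set, within 1.5-fold in all 10 cases measured above the floor. Their median was -0.18. Most genes above the floor were within 1.5-fold too, with 7.82% lower and 6.75% higher by that size or more. The hepatocyte factor gene Hnf4a had signals of 3233 in the FOS pool and 2745 in the switched pool, and its 4 probe sets lay between 0.25 and 0.53. Nr2f2, an orphan receptor gene, had 101 and 145, with probe sets from -1.08 to -0.04. The fatty acid receptor gene Ppara had 963 and 1300, with probe sets from -0.50 to -0.41, and the oxysterol receptor gene Nr1h3 had 244 and 321.

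Pklr is known to be more abundant in hepatocytes near the central vein, so zonal markers were set beside these values. Pericentral markers had lower signals in 7 of 9 genes, with a median of -0.36, led by Gulo, the gene of the last enzyme of vitamin C synthesis, at 1346 against 2124, and Cyp1a2, a drug-metabolising enzyme gene, at 1718 against 2491. Periportal markers had lower signals in 6 of 7 genes, with a median of -0.31, led by Hal, the histidine ammonia lyase gene, at 995 against 1323, and Pck1, a gluconeogenic enzyme gene, had 3819 against 4913. Both zones thus lay on the same side as Pklr, and the part of zonation was not tested. Of the other cell types, neutrophil markers had a median of 1.66 over 5 genes above the floor. They ran from -0.30 for Elane to 2.53 for Lcn2. The 3 others measured, with mean signals below the floor, had lower signals in the FOS pool. Lymphocyte markers had a median of -0.69 over 5. Smooth muscle markers had 0.54 over 4, bile duct markers 0.51 over 3, Kupffer cell and macrophage markers 0.22 over 11, and endothelial and stellate cell markers -0.11 over 9.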

How the data were processed

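Per the labels' protocols, liver RNA was pooled within each group and each pool was labelled and hybridised to 1 array. The deposited table holds the authors' MAS5 intensity, unlogged, of 45101 probe sets, and MAS5 and GCOS are named without a version in the submitters' processing notes. The 2% trimmed mean was 100.0 in both arrays. Detection calls were not used here, so which dim probe sets were detected is not known. Separately, having 1 array per group limits the precision.

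After 64 control probe sets were left out, log2 differences were computed with no offset. They were centred on their median, -0.01, over probe sets whose mean log2 signal reached the median of all, a signal of 19.4. That floor is not a detection call. Fold against a pool below the floor is given against the floor as a lower bound. Symbols came from the platform annotation, which gave 34958 probe sets 1 symbol and 932 several, and left 9160 unlisted; 34754 Entrez identifiers matched RefSeq GRCm38.p6 and 0 symbols changed. Probe sets with several symbols were not named. Some listed genes are not reported here.

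The members, the 20 further gene lists and the naming rule were chosen with earlier results of these data known. The rule named all members, up to 4 genes of largest difference in each list and 10 genes by symbol; Alb, Hba-a1, Slc4a1, Pygm, Usf2, Bpgm and Thrsp were named besides, after their values were seen. Computation used Python 3.11.15, pandas 2.3.3 and numpy 2.4.6, and the procedure was tested on simulated data. Counts at 1.3-fold were chosen after the values were known, and 9 alternative settings were run.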

Additional observations from a re-analysis of the deposited data

How the results depend on the processing

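No paired analysis was possible because each group has 1 array. Over the 9 alternatives (no centring, quantile normalization, centring on the hepatocyte markers, an offset of 32, the median over probe sets, no probe sets ending in _x_at, _s_at or _a_at where another exists, no floor, a floor at the 75th percentile, and signals below the floor set to it), Pklr ran from -0.89 to -0.62, Khk from -0.49 to -0.41, Ldha from 0.39 to 0.46, Slc2a2 from -0.27 to -0.19, Mlxipl from -0.19 to -0.12 and Gckr from 0.02 to 0.10. Pfkl was between 0.06 and 0.16 except when its probe sets ending in _a_at were left out, where the dim probe set alone gave -0.58. Leaving out probe sets with these endings applied only where a gene had another above the floor. Among these genes it could thus change Pfkl alone. Pklr kept its value by construction, because its brightest probe set has no such ending. So did Ldha and Mlxipl, whose only probe sets end in _a_at. The count at least 1.5-fold lower was 1 and the count at least 1.5-fold higher was 0 in each alternative for these 7 genes. Most of these settings could hardly change the counts. Changes of centring or of the floor only moved all 7 differences by the same small constant. Setting low signals to the floor left all 7 as they were. The median of the other ChREBP target genes, from -0.03 to 0.14, kept its sign in 5 of the 9. The pools' signal over background is not known, and dim genes such as the other sugar carriers limit what can be read.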

Other observations

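The carbohydrate response element consensus found in the Pklr promoter occurred in windows of 37 genes, of which 10 were above the floor. Of these 10, Pklr was the 1 gene lower in the FOS pool by 1.5-fold or more and 2 were higher by that size, Fam124a with signals of 268 and 108 and Irak1bp1 with 47.9 and 20.9 in the FOS and switched pools. Over all genes above the floor 7.82% were lower and 6.75% higher by that size. The median difference of the 10 was -0.03. Pde4b, a cAMP phosphodiesterase gene, lay next to Pklr with signals of 160 and 223. The list was drawn up after the Pklr value was known, and the genes apart from Pklr were named after their values were seen.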
